A study of Mus musculus with 16 samples.

Results

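Eph receptors and their ephrin ligands were followed in transgenic neural stem/progenitor cells (NSPCs) through 10 genes: the EphA receptors *Epha3*, *Epha4*, *Epha5* and *Epha7*, the EphB receptors *Ephb1* and *Ephb2*, and the ligands *Efna5*, *Efnb1*, *Efnb2* and *Efnb3*. They were taken from the expression table by gene symbol, and all 10 were among its 30386 genes. They had been chosen by their CPM in *Dbx2*-NSPCs and *GFP*-NSPCs, to set *Epha5* beside its paralogs and ligands. The NSPC lines had been derived from the subventricular zone (SVZ) of C57BL/6J/Babr mice at 3 months of age. They carried under constitutive expression either a mouse *Dbx2* transgene (*Dbx2*-NSPCs, 8 samples) or a control *GFP* transgene (*GFP*-NSPCs, 8 samples). All lines grew as neurospheres with EGF, FGF2 and heparin, and both transgenes were kept under puromycin selection. *Dbx2* encodes a homeodomain transcription factor, and the comparison asks which transcripts differ when it is expressed constitutively. The study used 2 independently derived pairs of lines, but the sample labels give only the transgene and a number from 1 to 8, so no sample was assigned to a line. P-values below measure the spread between these cultures of a few lines.

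Eph receptors are receptor tyrosine kinases of the cell surface, and ephrins are ligands that stay attached to the surface of the neighbouring cell, so signalling needs contact between cells. EphA receptors mostly bind ephrin-A ligands, which hang on a lipid anchor, and EphB receptors mostly bind ephrin-B ligands, which cross the membrane and signal back into their own cell; *Epha4* binds both classes. In the SVZ this system is known for its part in progenitor proliferation and in the migration of neuroblasts, and in the developing brain for repelling axons and cells at boundaries.

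The 16 libraries held 1803928 to 3293285 reads each. Values are CPM, the reads of a gene per 1000000 reads of its sample, and 3 reads, the smallest amount treated here as above 0, equal 0.911 to 1.66 CPM. The library kit reads 1 end of each transcript, so CPM needs no correction for gene length when genes are set side by side. *Dbx2* itself was at 30.67 to 171.22 CPM in *GFP*-NSPCs and at 114 to 232.13 CPM in *Dbx2*-NSPCs, and its log2 fold change was 1.26 with an SE of 0.317 (limma adjusted p = 0.00978). In the samples numbered 1 to 4 these levels overlapped, with a fold change of 0.54 on the log2 scale (limma adjusted p = 0.0891), while in those numbered 5 to 8 it was 1.99. The first principal component of all tested genes separated numbers 1 to 4 from numbers 5 to 8 in both groups. The labels do not say what samples of one set of numbers share, so values within each set are given beside the pooled ones where genes of the family or its signalling list were called. *GFP*-NSPC sample 1 lay apart from its group on the second component, at 7.03, where the rest of the group lay between 20.04 and 43.62 and *Dbx2*-NSPCs lay between -35.2 and -25.0. Markers of neural stem or progenitor cells had a summed level of 6864 to 8411 CPM with the *GFP* transgene and of 5619 to 7163 CPM with the *Dbx2* transgene, and *Nes*, *Sox2*, *Vim* and *Olig2* were present in every sample while *Prom1* was at or near 0.

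The results turn on 4 receptor genes, whose sequence just upstream of the start is shown because *Epha5* separated the groups and the other 3 moved differently in the 2 sets of samples. The 250 bases before each transcription start come from RefSeq on GRCm38.p6 and all 4 genes lie on the minus strand. They are chr5:84417383-84417632 for *Epha5*, chr1:77515089-77515338 for *Epha4*, chr9:102354694-102354943 for *Ephb1* and chr4:136836013-136836262 for *Ephb2*. Capitals mark TAATTA, a core recognised by many homeodomain proteins, and GGGCGG, the GC box, both looked for on both strands; these motifs did not overlap each other.
Epha5: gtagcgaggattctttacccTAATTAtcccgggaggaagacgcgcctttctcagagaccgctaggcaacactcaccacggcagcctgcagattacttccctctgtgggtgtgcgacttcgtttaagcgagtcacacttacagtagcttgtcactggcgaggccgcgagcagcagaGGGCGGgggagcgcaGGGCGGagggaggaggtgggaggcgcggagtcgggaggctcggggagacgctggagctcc
Epha4: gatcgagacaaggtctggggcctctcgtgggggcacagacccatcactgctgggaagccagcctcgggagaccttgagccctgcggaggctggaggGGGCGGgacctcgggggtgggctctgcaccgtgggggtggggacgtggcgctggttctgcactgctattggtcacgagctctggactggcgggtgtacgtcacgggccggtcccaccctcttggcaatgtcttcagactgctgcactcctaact
Ephb1: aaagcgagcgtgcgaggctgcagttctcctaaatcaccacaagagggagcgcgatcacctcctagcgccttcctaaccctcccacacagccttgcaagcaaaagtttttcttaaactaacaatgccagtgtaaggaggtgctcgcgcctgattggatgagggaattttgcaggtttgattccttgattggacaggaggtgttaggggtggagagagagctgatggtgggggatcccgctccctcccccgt
Ephb2: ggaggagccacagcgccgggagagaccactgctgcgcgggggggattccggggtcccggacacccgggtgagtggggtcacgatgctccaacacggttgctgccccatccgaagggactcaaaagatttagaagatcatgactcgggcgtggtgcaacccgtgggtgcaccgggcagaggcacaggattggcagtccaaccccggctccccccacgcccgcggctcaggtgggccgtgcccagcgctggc
TAATTA was searched in the window from 250 bases before to 50 after the start and was found once in *Epha5*, with its first base 230 bases before the start. Of all 32851 promoters of that length 5.291% held it. A promoter was listed for 21 of the 22 Eph and ephrin genes of the table, and the only other one with TAATTA was *Efna1*, 175 bases before its start. GGGCGG was found at 75 and 60 bases before the start of *Epha5* and 154 bases before that of *Epha4*, and not in the windows of *Ephb1* or *Ephb2*; 35.66% of all promoters held it. These matches describe the letters of the windows and show neither binding nor its absence.

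*Epha5* (ENSMUSG00000029245), a receptor of ephrin-A ligands, was the Eph receptor whose level separated the groups of cultures. It spans chr5 from 84054761 to 84417382 on the minus strand of GRCm38. In *GFP*-NSPC samples 1 to 4 its level was 98.7, 78.3, 74.6 and 90.0 CPM, and in samples 5 to 8 it was 52.6, 65.0, 48.2 and 72.0 CPM. In *Dbx2*-NSPC samples 1 to 4 it was 11.6, 9.11, 7.82 and 12.6 CPM, and in samples 5 to 8 it was 7.74, 6.52, 7.67 and 3.04 CPM. Every *Dbx2*-NSPC sample lay below every *GFP*-NSPC sample, with the lowest *GFP*-NSPC sample at 48.2 CPM and the highest *Dbx2*-NSPC sample at 12.6 CPM. The means were 72.4 ± 17.2 and 8.25 ± 2.96 CPM (SD, n = 8 each), from 1589 and 194 reads.

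The log2 fold change of *Epha5* was -3.11 (SE 0.220), with -3.01 (SE 0.177) in numbers 1 to 4 and -3.21 (SE 0.257) in numbers 5 to 8. The genes were chosen with this comparison known, so the values describe the difference and no test is attached to them. The difference between these fold changes, which the choice did not use, was -0.20 (95% interval -0.86 to 0.46, limma adjusted p = 0.785). In *GFP*-NSPCs the level in numbers 5 to 8 was lower than in numbers 1 to 4 by 0.53 on the log2 scale, which missed the threshold (limma adjusted p = 0.0849) and passed it with edgeR (adjusted p = 0.0137) and DESeq2 (adjusted p = 0.0101) on the recovered reads. Without *GFP*-NSPC sample 1 the log2 fold change was -3.04. In bulk RNA, fewer cells that express a gene and less of its RNA per cell cannot be told apart.

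Markers of other cell types moved with the same contrast, in which 15.8% of all tested genes passed limma's threshold (8.03% up and 7.78% down). Of 9 tested progenitor markers, 4 were lower in *Dbx2*-NSPCs (*Slc1a3*, *Fabp7*, *Egfr* and *Pax6*) and 0 higher. Of 5 astrocyte markers, *Aldoc* and *Gfap* were higher and *Gja1* lower, and the sum of the list ran from 256 to 473 CPM in *GFP*-NSPCs and from 457 to 813 CPM in *Dbx2*-NSPCs. Of 4 tested neuroblast or neuron markers *Map2* was lower, with sums of 838 to 1293 and 702 to 906 CPM and *Stmn2* at 0 in all samples. Of 2 tested ependymal markers *Ccdc153* was higher, with sums of 9.56 to 21.4 and 14.4 to 34.7 CPM and *Tmem212* at 0 in all samples. None of 3 tested oligodendrocyte lineage markers passed limma's threshold (*Mog* was at 0 in all samples), and microglial, endothelial and mural lists summed to at most 1.63, 8.08 and 6.07 CPM. Marker genes also moved with the sets: the set difference passed limma's threshold for 6 of 25 tested markers, 3 higher and 3 lower, beside 9.44% of all tested genes. The neuronal markers *Dcx* and *Rbfox3* had transgene log2 fold changes of -2.87 and -1.96 in numbers 1 to 4 and of 3.02 and 2.90 in numbers 5 to 8, at group means of at most 5.45 CPM. The set difference was -4.47 for *Gja1*, 1.19 for *Aldoc*, -0.68 for *Nes* and -2.94 for *Acta2*, a mural marker with a mean of 0.09 CPM in *GFP*-NSPCs. *Acta2* had 2 reads over all *GFP*-NSPC samples and entered the fit through *Dbx2*-NSPC samples alone. Its call among the 6 thus describes counts near the floor. For *Gja1* 4 of the 8 *Dbx2*-NSPC samples lay at or under the floor, 2 of them at 0. The size of the *Gja1* set difference thus rests in part on the pseudocount. The part of these markers in the difference of *Epha5*, or in the set differences of *Epha4*, *Ephb1*, *Ephb2* and *Ephb3*, was not tested.

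**Figure D1:**
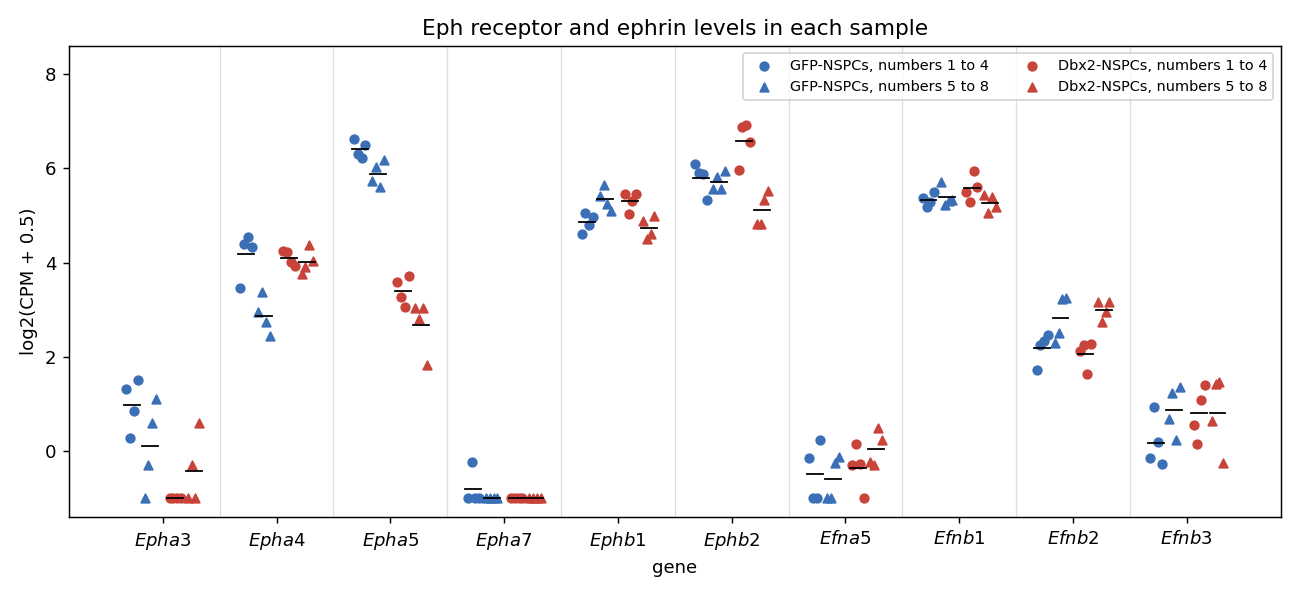
Level of each gene on the vertical axis, as log2(CPM + 0.5), in each of 16 samples, with *GFP*-NSPCs in blue, *Dbx2*-NSPCs in red, circles for numbers 1 to 4, triangles for numbers 5 to 8 and a bar at the mean of each set of 4. *Epha5* is the gene whose groups lie fully apart, while *Epha4*, *Ephb1* and *Ephb2* differ in opposite ways or in a single set.

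*Epha5* was the only one of the 10 genes whose groups did not overlap over all 16 samples. Over the 12533 tested genes this held for 3.41%, with every *Dbx2*-NSPC sample lower for 1.81% and higher for 1.6%. Within numbers 1 to 4 *Epha5* and *Epha3* were separated, both lower, beside 19.6% of all tested genes (9.53% higher). Within numbers 5 to 8 *Epha4* was separated and higher, and *Epha5*, *Ephb1* and *Ephb2* were separated and lower, beside 24.8% of all tested genes. Of the 10 genes 8 had more than 1 CPM in at least 4 samples and entered the fit; *Epha7* and *Efna5* did not. In the fit 2 of the 8 passed the threshold, both lower (*Epha5* and *Epha3*), beside 15.8% of all tested genes (8.03% up and 7.78% down). Fitted within a set, the count was 3 in numbers 1 to 4, beside 15.6% of all tested genes (8.19% up and 7.37% down), and 4 in numbers 5 to 8, beside 23.2%. Since this contrast chose the genes, nothing is read from these counts. *Epha3* entered the fit through its *GFP*-NSPC samples alone, and in numbers 1 to 4 it had 0 reads in *Dbx2*-NSPCs. Its call and its separation in that set therefore describe counts at the floor. The median log2 fold change of the 8 was 0.05 and that of all tested genes -0.02.

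*Epha4*, which binds ephrins of both classes, was at 10.5, 20.5, 22.8 and 19.7 CPM in *GFP*-NSPC samples 1 to 4 and at 7.20, 9.82, 6.15 and 4.93 CPM in samples 5 to 8. In *Dbx2*-NSPCs it was at 18.6, 18.2, 15.6 and 14.7 CPM in samples 1 to 4 and at 13.0, 14.6, 20.3 and 15.9 CPM in samples 5 to 8. The 4 *GFP*-NSPC samples numbered 5 to 8 were thus the low ones, and every *Dbx2*-NSPC sample of those numbers lay above them.

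In *GFP*-NSPCs *Epha4* was lower in numbers 5 to 8 than in numbers 1 to 4 by a log2 difference of -1.31 (SE 0.245, limma adjusted p = 0.000223). Its transgene log2 fold change was -0.07 (SE 0.241) in numbers 1 to 4 and 1.15 (SE 0.246) in numbers 5 to 8. The difference between the sets was 1.22 (95% interval 0.51 to 1.94, limma adjusted p = 0.0230). That call was lost when *GFP*-NSPC sample 2, 3, 4 or 8 or *Dbx2*-NSPC sample 7 was left out, with a difference of 1.08 to 1.17 and adjusted p between 0.0504 and 0.0618.

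*Epha3*, a receptor that prefers *Efna5*, was near the limit of detection. Its reads summed to 26 over the *GFP*-NSPC samples, which lay between 0 and 2.33 CPM, and to 4 over the *Dbx2*-NSPC samples. In numbers 1 to 4 it had 18 reads in *GFP*-NSPCs and 0 in *Dbx2*-NSPCs, and in numbers 5 to 8 it had 8 and 4. It entered the fit through its *GFP*-NSPC samples alone, so its fitted log2 fold change of -1.26 (SE 0.389) describes counts at the floor, and that value ran from -2.76 to -0.52 with other pseudocounts and tools. *Epha7* gave 1 read, in *GFP*-NSPC sample 2, and 0 in the other samples.

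*Ephb1*, an EphB receptor, was at 23.8, 32.8, 27.4 and 30.7 CPM in *GFP*-NSPC samples 1 to 4 and at 42.1, 49.7, 37.2 and 33.7 CPM in samples 5 to 8. In *Dbx2*-NSPC samples 1 to 4 it was at 43.3, 32.5, 39.1 and 43.4 CPM, and in samples 5 to 8 at 28.9, 22.1, 23.9 and 31.4 CPM. In numbers 5 to 8 the *Dbx2*-NSPC samples were all below the *GFP*-NSPC samples, and in numbers 1 to 4 they were higher in 3 of 4 numbers with an overlap. Over all 16 samples the log2 fold change was -0.07 (SE 0.166).

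The transgene log2 fold change of *Ephb1* was 0.46 (SE 0.156) in numbers 1 to 4 and -0.60 (SE 0.159) in numbers 5 to 8, which differed by -1.06 (95% interval -1.54 to -0.59, limma adjusted p = 0.00245). In *GFP*-NSPCs *Ephb1* was higher in numbers 5 to 8 by 0.49 (limma adjusted p = 0.0234), a call lost without *GFP*-NSPC sample 1, 3, 5 or 6 (0.39 to 0.48, adjusted p up to 0.0983). Both differences rest on the same *GFP*-NSPC samples, and so do those of *Epha4*.

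*Ephb2*, the most abundant EphB receptor among the 10 genes, was at 68.1, 59.6, 58.3 and 39.7 CPM in *GFP*-NSPC samples 1 to 4 and at 47.1, 55.5, 46.5 and 61.3 CPM in samples 5 to 8. In *Dbx2*-NSPC samples 1 to 4 it was at 62.3, 117, 120 and 93.3 CPM, and in samples 5 to 8 at 27.8, 27.7, 39.7 and 45.6 CPM. *Dbx2*-NSPC samples 2, 3 and 4 were the high ones, and all *Dbx2*-NSPC samples numbered 5 to 8 lay below the *GFP*-NSPC samples of those numbers.

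Its transgene log2 fold change was 0.78 (SE 0.215) in numbers 1 to 4 and -0.60 (SE 0.169) in numbers 5 to 8, with 0.09 (SE 0.278) over all samples. The sets differed by -1.37 (95% interval -1.95 to -0.80, limma adjusted p = 0.00146). In *GFP*-NSPCs alone the sets differed by -0.08 (SE 0.197, limma adjusted p = 0.800), so for *Ephb2* the sets lay apart in *Dbx2*-NSPCs.

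The difference between the sets was past the threshold for 3 of the 8 tested genes, beside 9.44% of all tested genes (4.4% up and 5.04% down). *Epha4* was higher and *Ephb1* and *Ephb2* were lower in numbers 5 to 8 relative to numbers 1 to 4. The median difference of the 8 was -0.28, also with *Epha3* in *Dbx2*-NSPC samples 1 to 4, where it had 0 reads, set to 3 reads over these 4 libraries together, and that of all tested genes was 0.02. Within *GFP*-NSPCs 2 of the 8 differed between the sets, *Epha4* lower and *Ephb1* higher, beside 28.6% of all tested genes. Their median there was -0.02 and that of all tested genes 0.02.

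**Figure D2:**
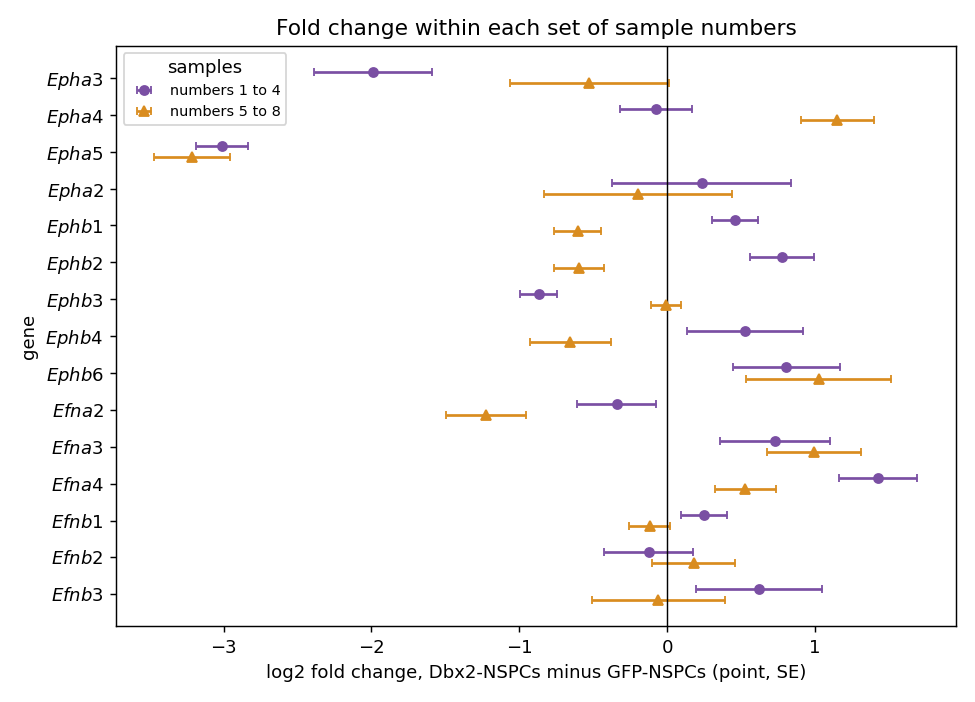
Log2 fold change between *Dbx2*-NSPCs and *GFP*-NSPCs on the horizontal axis for each tested Eph and ephrin gene, fitted within numbers 1 to 4 (purple circles) and within numbers 5 to 8 (orange triangles), with bars of 1 SE. *Epha5* sits near -3 in both sets; *Ephb1* and *Ephb2* lie on opposite sides of 0, and the point of *Epha3* for numbers 1 to 4 rests on 0 reads in *Dbx2*-NSPCs and on the pseudocount.

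Among the ligands *Efnb1* was the most abundant and varied little. It is a transmembrane ephrin that binds EphB receptors. Its mean was 40.9 ± 5.14 CPM (35.6 to 51.5) with the *GFP* transgene and 43.2 ± 8.76 CPM (32.9 to 61.2) with the *Dbx2* transgene (SD, n = 8). The log2 fold change was 0.07 (SE 0.119). The groups overlapped in both sets, and the difference between the sets was -0.37 (95% interval -0.81 to 0.07, limma adjusted p = 0.330).

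*Efnb2*, the ligand of *Ephb4* and of other EphB receptors, ranged from 2.82 to 9.05 CPM in *GFP*-NSPCs and from 2.61 to 8.45 CPM in *Dbx2*-NSPCs, with a fold change of 0.03 on the log2 scale (SE 0.266). Its set difference was 0.30 (95% interval -0.56 to 1.16, limma adjusted p = 0.747). *Efnb3*, another transmembrane ephrin, was at 0.33 to 2.06 and 0.34 to 2.26 CPM, with 5 and 4 samples at or under the floor, and its set difference was -0.68 (95% interval -2.03 to 0.67, limma adjusted p = 0.611). *Efna5*, an ephrin-A ligand of *Epha5*, gave 5 reads in *GFP*-NSPCs and 10 in *Dbx2*-NSPCs over 8 samples each and was at or under the floor in all 16 samples, so no difference was detectable at this depth.

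By level in *GFP*-NSPCs the 10 genes ran from *Epha5* through *Ephb2*, *Efnb1*, *Ephb1*, *Epha4* and *Efnb2* to *Epha3*, *Efnb3*, *Efna5* and *Epha7*. Neighbours in that order overlapped in their ranges except *Ephb1* and *Epha4*, and *Efnb2* and *Epha3*. In *Dbx2*-NSPCs the order ran from *Ephb2* through *Efnb1*, *Ephb1*, *Epha4*, *Epha5*, *Efnb2* and *Efnb3* to *Efna5*, *Epha3* and *Epha7*. There the ranges did not overlap between *Ephb1* and *Epha4*, *Epha4* and *Epha5*, and *Efnb2* and *Efnb3*. *Epha5* thus stood at the head of the order in *GFP*-NSPCs and below *Epha4* in *Dbx2*-NSPCs.

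All 14 Eph receptor genes of the table, the 6 above and 8 further ones, had a summed level of 253 ± 24.0 CPM with the *GFP* transgene and of 185 ± 33.2 CPM with the *Dbx2* transgene (SD, n = 8 each). *Epha5* made up 28.4% ± 4.79 of this sum in *GFP*-NSPCs (22.3% to 36.6%) and 4.47% ± 1.43 in *Dbx2*-NSPCs (1.80% to 6.34%). Without it the sums were 180 ± 13.3 and 177 ± 32.0 CPM. Within the sets the sums without *Epha5* were 184 ± 13.3 and 202 ± 22.7 CPM in numbers 1 to 4 and 177 ± 14.1 and 151 ± 12.4 CPM in numbers 5 to 8 (SD, n = 4 each). EphA genes took 34.1% ± 6.39 of receptor CPM in *GFP*-NSPCs and 14.1% ± 2.41 in *Dbx2*-NSPCs. The ephrin genes summed to 74.8 ± 8.49 and 82.9 ± 9.43 CPM, of which *Efnb1* made up 54.7% ± 4.25 and 51.9% ± 6.70.

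**Figure D3:**
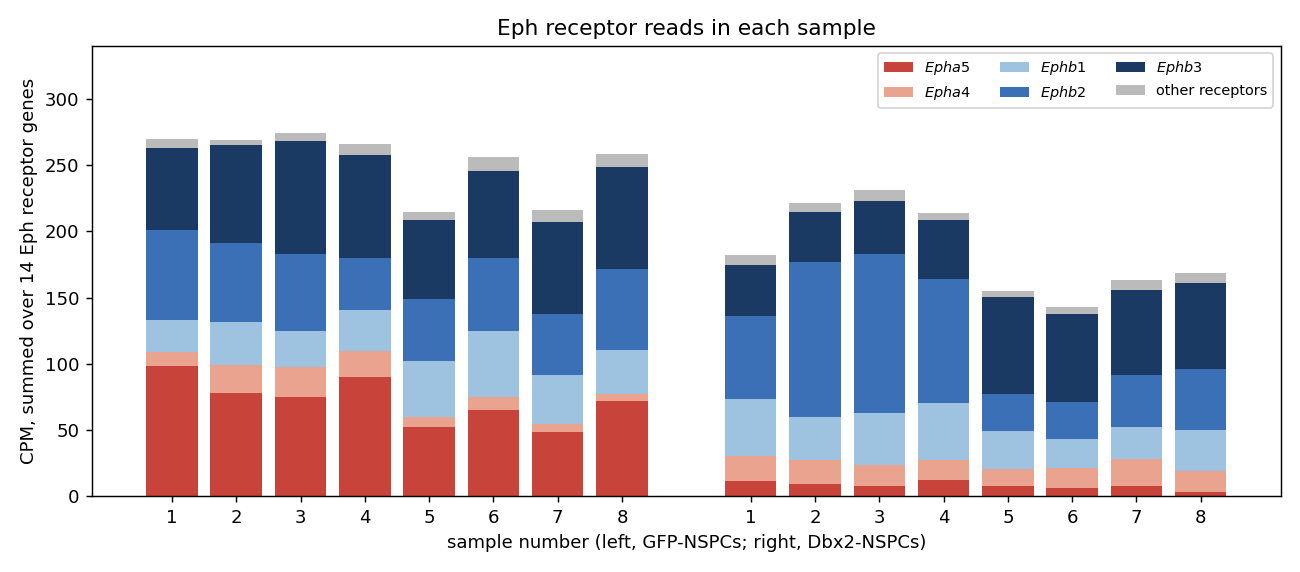
Summed CPM of the 14 Eph receptor genes on the vertical axis for each sample on the horizontal axis, with *GFP*-NSPCs left and *Dbx2*-NSPCs right, and each bar divided by gene. The *Epha5* part takes 22.3% to 36.6% of the bars on the left and 1.80% to 6.34% of those on the right.

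The 12 other Eph and ephrin genes are those of the family left after the genes above were chosen with the transgene contrast in view. Their contrast was tested, but the p-values and the share that passed are not free of that choice. Of the 12, 7 were tested, and 4 passed limma's threshold: *Efna3* and *Efna4* were higher and *Efna2* and *Ephb3* lower in *Dbx2*-NSPCs. That is 57.1% of the 7, beside 15.8% of all tested genes (8.03% up and 7.78% down). The median log2 fold change of the 7 was 0.02, and that of all tested genes -0.02. The count depended on the samples and the model: leaving out 1 sample left between 0 and 4 calls (0 without *GFP*-NSPC sample 2, 1 without *GFP*-NSPC sample 3 or 4 or *Dbx2*-NSPC sample 7, and 2 without *GFP*-NSPC sample 6, 7 or 8 or *Dbx2*-NSPC sample 1, 2, 5 or 6). On the recovered reads edgeR called 1 and DESeq2 2. With the set of numbers as covariate limma called 5, 3 higher and 2 lower, and edgeR 4.

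*Ephb3*, an EphB receptor as abundant as *Epha5* in *GFP*-NSPCs, was at 61.6, 73.7, 85.0 and 77.7 CPM in *GFP*-NSPC samples 1 to 4 and at 59.9, 65.6, 69.0 and 76.9 CPM in samples 5 to 8. In *Dbx2*-NSPCs it was at 38.9, 37.9, 39.7 and 44.9 CPM in samples 1 to 4 and at 72.9, 66.8, 64.1 and 65.2 CPM in samples 5 to 8. The *Dbx2*-NSPC samples numbered 1 to 4 were the low ones, below all *GFP*-NSPC samples. The log2 fold change was -0.87 (SE 0.128) in that set and -0.01 (SE 0.103) in the other, a difference of 0.86 (95% interval 0.51 to 1.21, limma adjusted p = 0.00101) that held in every refit without 1 sample. The pooled log2 fold change of -0.44 (limma adjusted p = 0.0452) lost its call with edgeR, DESeq2 and both scalings, with adjusted p up to 0.0726. That call was also lost in 10 of the 16 fits without 1 sample, with limma adjusted p up to 0.0908. *Ephb3* was the 1 of these 7 genes whose sets differed, beside 9.44% of all tested genes.

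The ephrin-A ligands that were detected moved in different directions. The mean of *Efna2* was 12.7 ± 3.17 CPM with the *GFP* transgene and 7.65 ± 3.64 CPM with the *Dbx2* transgene, a change of -0.78 on the log2 scale (limma adjusted p = 0.0388). The means of *Efna4* were 9.72 ± 5.31 and 17.6 ± 5.27 CPM in the same order, a change of 0.98 (limma adjusted p = 0.0335), and *Dbx2*-NSPCs were higher at all 8 numbers. Those of *Efna3* were 3.70 ± 2.21 and 6.63 ± 1.72 CPM, a change of 0.86 (limma adjusted p = 0.0286), also with *Dbx2*-NSPCs higher at all 8 numbers (SD, n = 8 for each mean). Within numbers 1 to 4 and 5 to 8 the changes were -0.34 and -1.22 for *Efna2*, 1.42 and 0.53 for *Efna4*, and 0.73 and 0.99 for *Efna3*, and the set difference passed for none of them (limma adjusted p = 0.169, 0.105 and 0.820). Without filter and with edgeR *Efna2* and *Efna3* lost their calls, with adjusted p of 0.0523 to 0.0776. With DESeq2 *Efna2* lost its call too (adjusted p = 0.0552). In the 16 fits without 1 sample the call was lost in 9 for *Efna2*, 6 for *Efna3* and 6 for *Efna4*. Their limma adjusted p reached 0.0778, 0.0551 and 0.0678 in that order.

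*Efna4* was also higher in numbers 5 to 8 than in numbers 1 to 4 of *GFP*-NSPCs, by 1.47 (limma adjusted p = 4.12e-05). *Ephb4*, the receptor of *Efnb2*, was higher there by 2.01 (limma adjusted p = 8.16e-05) and had a transgene log2 fold change of -0.06 (limma adjusted p = 0.943). *Ephb6*, a receptor without kinase activity, was lower there by a log2 difference of -1.44 (limma adjusted p = 0.0182). It had 29 reads over the 8 *GFP*-NSPC samples, of which 5 lay at or under the floor. That call was lost in 3 of the 16 fits without 1 sample (limma adjusted p up to 0.0718). The difference of *Ephb6* ran from -2.25 to -0.71 over all alternatives. Its transgene log2 fold change was 0.91 (limma adjusted p = 0.169), with 0.80 and 1.02 in the sets, and it passed with the set as covariate (limma adjusted p = 0.0396) but not with edgeR and that covariate (adjusted p = 0.0548). *Epha2* had a change of 0.02 (limma adjusted p = 0.988) at a mean of 0.86 CPM. *Epha1*, *Epha6*, *Epha8*, *Epha10* and *Efna1* did not enter the fit, and *Epha6* had 0 reads in all samples.

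Position along the chromosome was looked at after the values above had been seen, with the 20 nearest tested genes of each receptor. Around *Epha5* these neighbours had a median transgene log2 fold change of -0.17, between -0.92 and 0.29. Of them 4 were called lower and 0 higher, beside 7.78% and 8.03% of all tested genes. In numbers 1 to 4 and 5 to 8 their medians were -0.17 and -0.10. The value of *Epha5*, -3.11, lay below that of each of these 20 neighbours. Since *Epha5* was chosen with this contrast known, nothing is read from that order.

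Around *Ephb2* on chromosome 4 the neighbours, over 2.21 Mb, had a median of 0.58 in numbers 1 to 4 and of -0.32 in the other set. The set difference was past limma's threshold for 10 of 20, beside 9.44% of all tested genes. *Ephb2* itself was at 0.78 and -0.60. *Cdc42*, which encodes a small GTPase that acts downstream of Eph receptors, is the third tested gene after *Ephb2* and was at 0.60 and -0.98, a set difference of -1.58 (limma adjusted p = 1.53e-06). Around *Epha2*, on the same chromosome, the medians were 0.71 and -1.04, with 15 of 20 past the threshold. Around *Epha4*, *Ephb1* and *Ephb3* 3, 2 and 3 of 20 neighbours were past it, and their medians lay between -0.27 and 0.06 in either set. Around *Efna2* 10 of 20 neighbours were called lower in the transgene contrast, with a median of -0.48, beside 7.78% of all tested genes called lower.

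**Figure D4:**
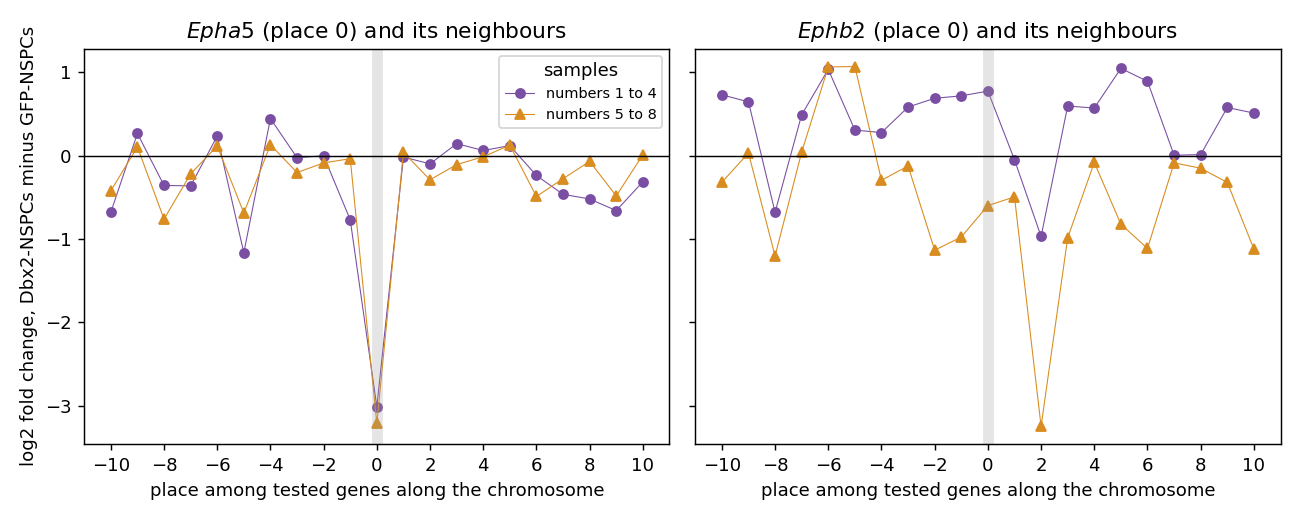
Transgene log2 fold change on the vertical axis of *Epha5* (left) and *Ephb2* (right) and of the 10 tested genes on each side by their order along the chromosome, fitted within numbers 1 to 4 (purple circles) and 5 to 8 (orange triangles). *Epha5*, which was chosen with this contrast known, lies alone near -3. *Ephb2* at 0.78 and -0.60 lies among neighbours whose medians are 0.58 and -0.32.

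The genes whose profile was most like that of *Epha5* were found by the root mean square distance between log2(CPM + 0.5) profiles, each centred on its own mean, over the 16 samples, among 8651 genes. They were *Gm13889* (0.60), *Pcdh19* (0.64), *Gpm6a* (0.65), *Lgr5* (0.66) and *Nxph1* (0.69). *Pcdh19*, a protocadherin, averaged 48.0 ± 8.85 CPM with the *GFP* transgene and 10.1 ± 1.53 CPM with the *Dbx2* transgene, and *Gpm6a*, a neuronal membrane glycoprotein, at 628 ± 155 and 171 ± 65.4 CPM (SD, n = 8 each). The distance counts the size of a change as well as its shape, so genes close to *Epha5* also fall. Since *Epha5* was chosen with its fall known, nothing is read from theirs.

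Of 46 genes listed for Eph and ephrin signalling, 45 were tested and 9 passed limma's threshold in the transgene contrast, 3 higher and 6 lower, which is 20% of them beside 15.8% of all tested genes. Their median log2 fold change was -0.03 and that of all tested genes -0.02. edgeR called 8 and DESeq2 11 on the recovered reads. The signalling list was chosen with earlier results of these data known. Its p-values and the share that passed are therefore not free of that choice.

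Among small GTPases, their regulators and effectors *Pak1*, a kinase driven by Rac and Cdc42, averaged 90.7 ± 15.9 CPM with the *GFP* transgene and 3.05 ± 1.90 CPM with the *Dbx2* transgene (SD, n = 8). Its log2 fold change of -4.84 had an SE of 0.260 (limma adjusted p = 5.12e-10). The groups did not overlap and the fold change was -5.12 and -4.56 in the sets. *Pak2* and *Pak3*, its relatives, had log2 fold changes of -0.15 and 0.09 that did not pass (limma adjusted p = 0.137 and 0.896); *Pak3* was below 0 in numbers 1 to 4 (-0.83) and above it in numbers 5 to 8 (1.004). *Rhoa*, the GTPase that acts in growth cone collapse, was lower by a change of -0.26 on the log2 scale (limma adjusted p = 0.0308), a call lost with edgeR and with both scalings (adjusted p 0.0506 to 0.0564). *Chn2*, which inactivates Rac, was higher by 0.60 (limma adjusted p = 0.00342), and *Chn1*, its relative known for acting below *Epha4*, was at -0.21 (limma adjusted p = 0.618).

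Among kinases *Ptk2*, the focal adhesion kinase, was lower by a change of -0.64 on the log2 scale (limma adjusted p = 0.0112) and *Yes1*, of the Src family, by -0.54 (limma adjusted p = 0.0129). *Src* was at 0.24 (limma adjusted p = 0.317) and *Fyn* at -0.20 (limma adjusted p = 0.122). Among adaptors *Anks1*, which binds EphA receptors, was higher by 0.91 (limma adjusted p = 0.00554) and *Nck2* by 0.80 (limma adjusted p = 0.0292), and *Sh2d3c* was lower by -1.22 (limma adjusted p = 0.0308) at 2.23 and 0.61 CPM. All 8 *Dbx2*-NSPC samples of *Sh2d3c* lay at or under the floor of 3 reads (15 reads in all, 50 in *GFP*-NSPCs), so it entered the fit through *GFP*-NSPCs and its value describes counts near the floor. Within the sets the changes were -0.43 and -0.85 for *Ptk2*, -0.47 and -0.62 for *Yes1*, 0.46 and 1.36 for *Anks1*, 0.87 and 0.73 for *Nck2*, and -1.49 and -0.95 for *Sh2d3c*. Those of *Rhoa* were -0.33 and -0.19, and those of *Chn2* 0.52 and 0.67. Leaving out 1 sample ended the call of *Nck2* and of *Rhoa* in 6 of 16 cases each and that of *Sh2d3c* in 5.

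*Grip1*, a scaffold that binds the tail of ephrin-B ligands, averaged 110 ± 23.0 CPM with the *GFP* transgene and 61.5 ± 11.9 CPM with the *Dbx2* transgene, without overlap (SD, n = 8). Its log2 fold change of -0.83 had an SE of 0.135 (limma adjusted p = 0.000296). The fall was -1.27 in numbers 1 to 4 and -0.39 in numbers 5 to 8, which differed by 0.88 (limma adjusted p = 0.00155). The protease *Adam10*, which cuts ephrin proteins, was at 0.07 (limma adjusted p = 0.527). The set difference passed for 7 of the 45, or 15.6% beside 9.44% of all tested genes: *Anks1b*, *Pak3* and *Grip1* were higher and *Vav3*, *Sipa1l1*, *Fyn* and *Cdc42* lower in numbers 5 to 8.

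**Figure D5:**
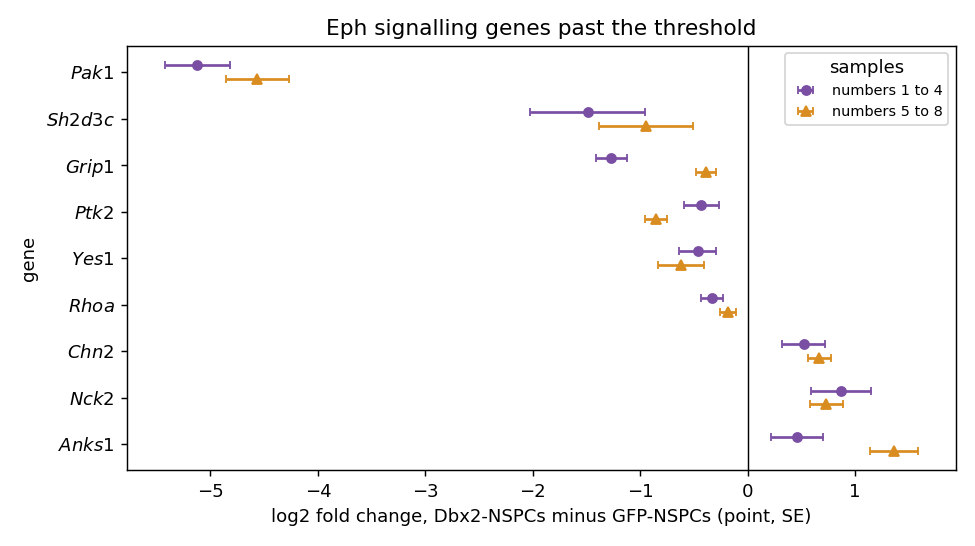
Transgene log2 fold change with 1 SE on the horizontal axis for the 9 signalling genes past limma's threshold over all samples, fitted within numbers 1 to 4 (purple circles) and 5 to 8 (orange triangles). *Pak1* lies near -5 in both sets. All 9 genes keep their direction across the sets, but the fit over all samples that chose them favours such genes. Nothing is therefore read from their shared direction. The points of *Sh2d3c* rest on *Dbx2*-NSPC samples at or under the floor of 3 reads.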

How the data were processed

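RNA was measured in 16 neurosphere cultures, 8 of *GFP*-NSPCs and 8 of *Dbx2*-NSPCs, grown for 4 to 6 days, with QuantSeq 3′ libraries made from 100 ng of total RNA. Per the submitters' processing notes and the study's methods, reads were checked with FastQC 0.11.8, trimmed with bbduk and aligned with STAR 2.5.0a to GRCm38 (mm10); the counting tool and its strand setting are not given in the sources used here. The authors deposited CPM values for 30386 genes (their notes also name edgeR 3.36), of which 12637 were at 0 in every sample. All columns of the table were used, so 0 were left out. Whole reads could be recovered from 99.9986% of the values above 0 (within 0.0051 CPM), so each sample's depth is known. The floor of 3 reads covers counting error only. The intervals come from the limma fits and cover the spread between cultures.

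The 12533 genes above 1 CPM in 4 or more of the 16 samples were kept. limma 3.58.1 (R 4.3.3, linear model and eBayes with trend, 2-sided) was run on log2(CPM + 0.5), p-values were adjusted by Benjamini-Hochberg across the 12533 genes, and the threshold was 0.05. The contrasts were *Dbx2*-NSPCs minus *GFP*-NSPCs, the difference of that contrast between numbers 5 to 8 and numbers 1 to 4, and the difference of these sets within *GFP*-NSPCs. The study fitted the cell line as a covariate; since the labels do not give it, none was fitted. The 10 genes and all lists were chosen with earlier results of these data known, and the 10 with the transgene contrast in view. No p-value of that contrast is therefore given for them, and counts of their calls are descriptions only. The text names the 10 genes, *Dbx2*, all tested family genes, the signalling genes past the threshold and the 5 genes most like *Epha5*; other signalling genes (*Pak2*, *Pak3*, *Chn1*, *Src*, *Fyn*, *Adam10*, *Cdc42* and those past the threshold in the set difference) were named after their values were seen.

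Replicate numbers come from the labels. Residuals of same-numbered samples correlated at 0.152 to 0.303 (mean 0.226), against 0.199 for other numbers of the same set and -0.206 for the other set, so the replicate number was used as a block in an alternative fit. Deviations from the set means correlated at 0.0403 for the same number and -0.0136 for other numbers. Positions came from GENCODE M21, where 30348 of the gene identifiers were found, and promoters from RefSeq. *Epha5* overlaps *Hmgn2-ps1* on the other strand, *Ephb1* overlaps 9 annotated genes on both strands and *Efnb2* overlaps 3 on its own strand. *Epha3*, *Epha4*, *Epha7*, *Efna3*, *Efna4* and *Ephb4* each overlap 1. With the counting tool and strand setting unknown, reads of all these genes may include those of the others. For genes on the same strand a strand setting would not part them. Alternatives were other pseudocounts, filters and scalings, eBayes without trend, 2 count models on the recovered reads (edgeR 4.0.16, DESeq2 1.42.0), each set alone, the set as covariate, and each sample left out. The contrasts were tested on simulated data with limma, edgeR and DESeq2, and limma also with the replicate block and the set covariate. Other alternatives were not simulated, and the simulated sets of numbers differed at most in the planted genes. Tables and plots used Python 3.11.15, numpy 2.4.6, pandas 2.3.3 and matplotlib 3.10.9.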

Additional observations from a re-analysis of the deposited data

Results flagged for a closer look

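Of 32 sets of values, each a gene in 1 group of 8 samples, 3 held a sample far from the others. The cutoff was a gap of over 0.526 of the range. Its rate of about 1 in 20 assumes normally distributed values from 1 population. That need not hold for CPM near 0 or for groups made of 2 sets, so nothing is read from the count. *Epha3* was at 1.01 CPM in *Dbx2*-NSPC sample 8, which is 3 reads. *Efna3* was at 8.86 CPM in *GFP*-NSPC sample 1, the sample that stands apart on the second component, with the next *GFP*-NSPC sample at 3.91 CPM; without it the log2 fold change of *Efna3* was 1.04 (limma adjusted p = 0.00263). *Dbx2* was at 232.13 CPM in *Dbx2*-NSPC sample 1, with the next at 168.44 CPM, and *GFP*-NSPC sample 1 was also the highest of its group for *Dbx2*, at 171.22 CPM.

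The transgene effect differed between numbers 5 to 8 and numbers 1 to 4, by limma's test of the difference itself, for *Dbx2* (1.45), for the receptors *Epha4* (1.22), *Ephb1* (-1.06), *Ephb2* (-1.37) and *Ephb3* (0.86), and for 7 signalling genes. These were *Anks1b* (1.497), *Pak3* (1.83), *Grip1* (0.88), *Vav3* (-0.57), *Sipa1l1* (-0.77), *Fyn* (-0.48) and *Cdc42* (-1.58), each a difference of log2 fold changes. The call of *Sipa1l1* was lost without any of 13 samples taken singly and that of *Vav3* without any of 4. What the samples of a set share was not tested.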

How the results depend on the processing

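The direction and size of the *Epha5* difference held in every alternative, with log2 fold changes from -3.21 to -2.89 (-3.21 to -2.94 when 1 sample was left out). No called value changed sign. With the set as covariate 3034 genes passed in the transgene contrast (1501 higher, 1533 lower) in place of 1982. The number of other family genes past the threshold, 4, became 1 without filter, 1 with edgeR, 2 with DESeq2, 2 within either set alone, 5 with the set as covariate and 4 with edgeR and that covariate; that of signalling genes, 9, became 5 within numbers 1 to 4, 14 within numbers 5 to 8 and 13 with the covariate. Of the 10 genes 2 passed in this contrast, 1 with the filter of over 1 CPM in all samples and 4 within numbers 5 to 8. These counts are descriptions only, since the contrast chose the genes.

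Over the 16 fits without 1 sample the transgene contrast gave 1679 to 2207 genes, the set difference 1026 to 1304 and the *GFP*-NSPC set difference 3030 to 3935. The 10 genes gave 1 to 2, 2 to 3 and 1 to 3 calls in these contrasts, the other family genes 0 to 4 and, in the set difference, 1 to 2, and the signalling genes 6 to 12 and 5 to 8. With the replicate block 2723 genes passed in the transgene contrast and 1308 in the set difference, with 13 signalling genes in the former; it changed no call of an Eph or ephrin gene or of the 9 signalling genes. Scaling moved the median of all genes by less than 0.03 on the log2 scale.

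For single genes with a test, 426 of 505 alternative values of the transgene contrast kept their side of the threshold, 78 lost the call and 1 (*Ephb6*) gained it. At this depth *Epha3*, *Epha7*, *Efna5* and *Efnb3* lie at or near the floor, and so do *Epha2* and, in *GFP*-NSPCs, *Ephb6*. The depth limits what these values can show.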
